A study of Mus musculus with 4 samples.

Results

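The transition proteins Tnp1 and Tnp2 and the protamines Prm1, Prm2 and Prm3 were followed in testis RNA of Tslc1-/- and Tslc1+/+ male mice. Every probe set that the array's annotation assigned to exactly 1 of these genes was taken. This gave 8 probe sets for 5 genes, out of 12422 non-control probe sets and 8251 named genes on the array. Each genotype had 2 arrays, all from C57BL/6J males of 16 weeks, and no treatment is given in the labels. Tslc1 is named Cadm1 in current annotation and encodes an immunoglobulin-superfamily adhesion molecule. Neither the extent of the deletion nor the number of animals behind each genotype is in the labels. The p-values set the genotype difference against the spread of arrays within a genotype, estimated in part from other probe sets of like signal. That spread may therefore be technical.

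In elongating spermatids the histones of the nucleus are removed, transition proteins take their place for a time, and protamines then pack the DNA into the sperm head. The messenger RNAs for these small basic proteins are made in round spermatids, held in storage and translated later. Mouse sperm nuclei carry both Prm1 and Prm2, whereas the mouse Prm3 product is an acidic, cytoplasmic protein despite its name. Mice without Tslc1 are known for male infertility with faulty spermatid maturation.

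On its bright probe set Prm3 fell 1.69-fold in Tslc1-/- testis, but its dimmer probe set overlapped between genotypes. Tnp1 fell 1.44-fold on its bright probe set, a result that did not hold when all probe sets were tested. Neither fall passed when the spread estimate did not follow signal intensity. Tnp2 had a lower signal that missed the threshold, and Prm1 had the smallest difference of the 4 bright genes. Prm2 was read by dim probe sets only, so its change could not be measured to better than several-fold. All values are signals of the Microarray Suite 5.0 software on a linear scale. All changes are differences of log2(signal + 50), Tslc1-/- minus Tslc1+/+, and the offset of 50 makes changes of dim probe sets look smaller. A probe set was called at a limma adjusted p under 0.05 (Benjamini-Hochberg over 7975 tested probe sets, those with a mean signal of at least 200). Because testis RNA was measured in bulk, fewer spermatids and less RNA per spermatid cannot be told apart.

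Tnp2, Prm3, Prm2 and Prm1 lie side by side on chromosome 16 and Tnp1 lies alone on chromosome 1. Their starts are shown here because the estimated signal changes of the 4 bright genes were unequal, although 3 of them share this cluster. The RefSeq sequence of assembly GRCm38.p6 held a promoter for all 5 genes, and the 120 bases just before each start are printed 5′ to 3′ on the minus strand, from chr1:73015900-73016019 (Tnp1), chr16:10788656-10788775 (Tnp2), chr16:10796824-10796943 (Prm1), chr16:10792106-10792225 (Prm2) and chr16:10790915-10791034 (Prm3). Capitals mark matches on either strand to TGACGTCA, the palindromic cyclic AMP response element, to its looser form TGANNTCA, or to TATAA or TATATA, which overlap each other.
Tnp1: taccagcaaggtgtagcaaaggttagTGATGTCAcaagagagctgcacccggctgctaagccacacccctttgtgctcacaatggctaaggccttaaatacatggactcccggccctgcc
Tnp2: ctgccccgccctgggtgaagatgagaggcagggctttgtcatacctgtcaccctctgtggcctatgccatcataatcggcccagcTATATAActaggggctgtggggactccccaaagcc
Prm1: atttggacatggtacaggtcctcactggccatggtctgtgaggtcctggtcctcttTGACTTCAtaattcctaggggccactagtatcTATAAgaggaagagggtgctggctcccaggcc
Prm2: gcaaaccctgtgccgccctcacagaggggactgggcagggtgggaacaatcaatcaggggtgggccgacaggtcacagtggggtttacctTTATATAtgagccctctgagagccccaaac
Prm3: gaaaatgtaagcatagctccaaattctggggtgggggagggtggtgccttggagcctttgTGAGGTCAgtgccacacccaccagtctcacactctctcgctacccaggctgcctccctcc

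None of the 5 windows held TGACGTCA, which 1.24% of all 32851 promoter windows of the same length held. TGANNTCA was present in Tnp1 from base -94 to -87 before the start, in Prm1 from -64 to -57 and in Prm3 from -60 to -53, and in 7.14% of all windows. TATAA was matched in Tnp2, Prm1 and Prm2, against 11.8% of all windows, and TATATA in Tnp2 and Prm2, against 2.51%. The genes with TGANNTCA included both that fell, Tnp1 and Prm3, and also Prm1, which was not called. These matches describe the letters only and say nothing of binding.

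The arrays were scaled by the authors to a common brightness, with median signals between 365.15 and 377.7 on the Tslc1-/- arrays and between 361.5 and 378.0 on the Tslc1+/+ arrays. Log2 signals over all non-control probe sets correlated with r = 0.941 between the Tslc1-/- arrays, r = 0.938 between the Tslc1+/+ arrays and r from 0.930 to 0.941 between genotypes; probe sets are not replicates. The targeted transcript Cadm1 was lower on both of its tested probe sets, at 444.2 ± 0.990 in Tslc1-/- against 3943 ± 24.6 in Tslc1+/+, and at 690.2 ± 121 in Tslc1-/- against 3739 ± 409 in Tslc1+/+ (SD, n = 2 arrays each). Where these probe sets lie relative to the deletion is not known, so they check the labels only as far as the signal goes. Over all genes 67 probe sets were lower (0.84%) and 19 higher (0.238%).

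Of the 8 member probe sets, 6 passed the signal limit and were tested, and 2 of them were called, both lower (Prm3 and Tnp1), where 1.08% of all tested probe sets were called and 0.84% called lower. On 4 of the 6 both Tslc1-/- arrays lay below both Tslc1+/+ arrays (Tnp1, Tnp2, Prm1 and 1 of 2 Prm3 probe sets), where 18.5% of all tested probe sets did so and 21.5% had both Tslc1-/- arrays above. The counts of called probe sets rest on a spread estimate that follows signal intensity, since limma without it called 0 probe sets of 7975, with 638 at an unadjusted p under 0.05.

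**Figure D1:**
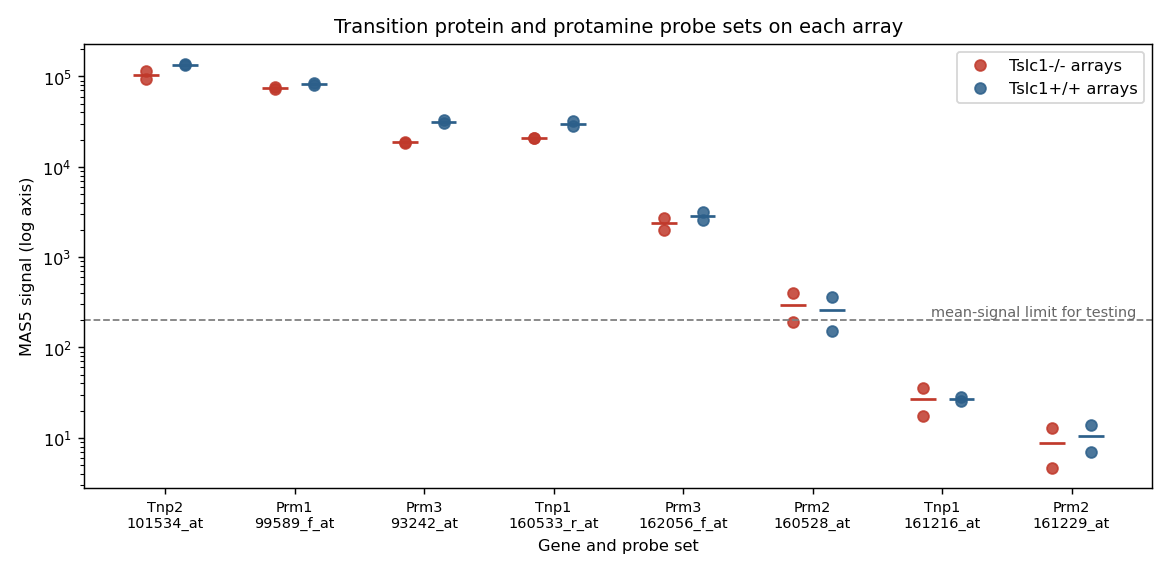
Signal of each member probe set on each array, on a log axis, with probe sets in order of their Tslc1+/+ mean; red points are Tslc1-/- arrays, blue points Tslc1+/+ arrays, and short lines the means of 2. Prm3 (93242_at) and Tnp1 (160533_r_at) show Tslc1-/- points clearly below the Tslc1+/+ points, the Prm1 points almost level, and the 3 probe sets on the right are dim.

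The transition proteins come first in the exchange. Tnp1, the smaller of them, read 20610 and 20923 on the Tslc1-/- arrays, against 28145 and 31916 on the Tslc1+/+ arrays (probe set 160533_r_at). The Tslc1-/- arrays almost coincided and both lay below the lower Tslc1+/+ array. The means were 20767 ± 221 in Tslc1-/- and 30030 ± 2667 in Tslc1+/+ (SD, n = 2 arrays each), which gave a log2 change of -0.53 ± 0.09 (SE; limma, adjusted p = 0.0156). The call did not hold when all 12422 probe sets were tested (limma, adjusted p = 0.091), nor without Tslc1-/- replicate 1 (adjusted p = 0.144), Tslc1-/- replicate 2 (adjusted p = 0.107) or Tslc1+/+ replicate 2 (adjusted p = 0.167). The suffix of this probe set marks possible cross-hybridisation.

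A second Tnp1 probe set, 161216_at, was dim, at 17.4 and 35.9 in Tslc1-/- and 25.5 and 28.5 in Tslc1+/+. It was below the limit for testing, and its genotypes overlapped. Over all probe sets its log2 change was -0.02 (95% interval -0.72 to 0.68).

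Tnp2, the zinc-binding transition protein, gave 113677 and 94752 on the Tslc1-/- arrays, against 136861 and 134674 on the Tslc1+/+ arrays (101534_at). It was the brightest non-control probe set on both Tslc1+/+ arrays and the third brightest on both Tslc1-/- arrays. The genotypes did not overlap, but the Tslc1-/- arrays lay much further apart than the Tslc1+/+ arrays. The log2 change was -0.39 ± 0.08 (SE), with a 95% interval of -0.57 to -0.20 (limma, adjusted p = 0.0654), so Tnp2 was not called. It passed when the array medians were made equal (limma, adjusted p = 0.0416) and among probe sets with no suffix (adjusted p = 0.028). It did not pass when all probe sets were tested (limma, adjusted p = 0.398) or without the intensity trend (adjusted p = 0.668). With 1 array left out, its change ranged from -0.52 to -0.26. Quantile normalization gave -0.31 (limma, adjusted p = 0.00475), but its rank was the same on both arrays of a genotype. Those equal ranks remove its spread within a genotype, so this p adds no support.

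Prm1, the protamine common to all mammals, was the eighth brightest non-control probe set on each of the 4 arrays. Its signals were 73083 and 76357 in Tslc1-/-, against 79771 and 83668 in Tslc1+/+ (99589_f_at). The genotypes did not overlap, yet the gap between them was small beside the values. The means of 74720 ± 2315 in Tslc1-/- and 81720 ± 2755 in Tslc1+/+ (SD, n = 2 arrays each) gave a log2 change of -0.13, with a 95% interval of -0.28 to 0.02 (limma, adjusted p = 0.568). That interval overlaps the one of Tnp2 (-0.57 to -0.20). It does not reach those of Tnp1 (-0.72 to -0.34) and the bright Prm3 probe set (-0.94 to -0.58). These intervals come from the same 4 arrays and are no test of a difference between genes. The suffix of the Prm1 probe set marks a family of similar sequences.

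Prm2, the protamine that is cut from a longer precursor, was read by a dim pair of probe sets. On 160528_at the signals were 396.3 and 192.9 in Tslc1-/-, against 364.9 and 152.5 in Tslc1+/+. Both replicates numbered 1 were just above their array's median and both numbered 2 were below it, so the arrays within a genotype differed more than the genotypes did. The log2 change was 0.18, with a 95% interval of -1.14 to 1.5 (limma, adjusted p = 0.955), and its sign turned when Tslc1-/- replicate 1 or Tslc1+/+ replicate 2 was left out (-0.26 and -0.33). The other probe set, 161229_at, had signals of 12.7 and 4.6 in Tslc1-/-, against 7.0 and 13.8 in Tslc1+/+, and was not tested. The array annotation gives no source accession for either, and whether they read the Prm2 messenger well was not tested, so no level of Prm2 is drawn from them.

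Prm3 had the largest change of the group. On 93242_at it read 18344 and 19051 in Tslc1-/-, against 32804 and 30606 in Tslc1+/+. The genotypes lay far apart compared with the arrays within each. The means were 18697 ± 500.5 in Tslc1-/- and 31705 ± 1555 in Tslc1+/+ (SD, n = 2 arrays each), which gave a log2 change of -0.76 ± 0.08 (SE; limma, adjusted p = 9.78e-04). It passed with each array left out in turn (limma, adjusted p from 0.0166 to 0.0302) and failed only without the intensity trend (adjusted p = 0.469). By brightness it ranked 121 and 117 of all non-control probe sets on the Tslc1-/- arrays, against 54 and 59 on the Tslc1+/+ arrays.

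The second Prm3 probe set, 162056_f_at, was much dimmer and less clear. It gave 2737 and 1992 in Tslc1-/-, against 2572 and 3123 in Tslc1+/+, and the genotypes overlapped. Its log2 change of -0.27 had a 95% interval of -0.68 to 0.13 (limma, adjusted p = 0.68), which reaches into the interval of the bright probe set, -0.94 to -0.58. Its suffix marks a family of similar sequences.

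In order of signal, the bright probe sets of Tslc1-/- testis ran Tnp2, Prm1, Tnp1, Prm3, with no overlap between neighbours. In Tslc1+/+ testis the order was Tnp2, Prm1, Prm3, Tnp1, and there Prm3 and Tnp1 overlapped, with 30606 to 32804 for Prm3 and 28145 to 31916 for Tnp1. Probe sets differ in how strongly they bind, so this is an order of signals and not of transcript numbers.

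Differences between members within an array restate these unequal changes array by array and are no further evidence for them. Prm1 and Tnp2, with the smaller changes, were also the brightest, and no saturation limit is known. The inequality is therefore one of signals, and whether the transcripts changed unequally was not tested. Prm1 stood above Prm3 by 1.99 and 2.00 on the log2 scale on the Tslc1-/- arrays, against 1.28 and 1.45 on the Tslc1+/+ arrays, so the gap was wider by 0.63 in Tslc1-/-. Tnp1 stood below Prm1 by log2 differences of -1.82 and -1.87 in Tslc1-/-, against -1.5 and -1.39 in Tslc1+/+, a change of -0.40. Tnp2 minus Prm1 was 0.64 and 0.31 in Tslc1-/-, against 0.78 and 0.69 in Tslc1+/+, a change of -0.26.

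Between the transition proteins no separation of the genotypes was seen, with Tnp1 minus Tnp2 at -2.46 and -2.18 in Tslc1-/- and at -2.28 and -2.08 in Tslc1+/+. The genotypes overlapped there, with a change of -0.14, and differences between single arrays of the genotypes spanned -0.39 to 0.10. Of 10 pairs, 6 did not overlap between genotypes, each with an exact permutation p of 0.33 (two-sided, adjusted 0.556 over the pairs). That is the smallest p that 2 arrays against 2 can give, so no pair could pass. Arrays with no genotype difference would separate with that same probability of 0.33, and the pairs share members, so they are not independent. Among the 6 was Prm2 minus Prm3, which rests on the dim Prm2 probe set and was apart by only 0.01.

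**Figure D2:**
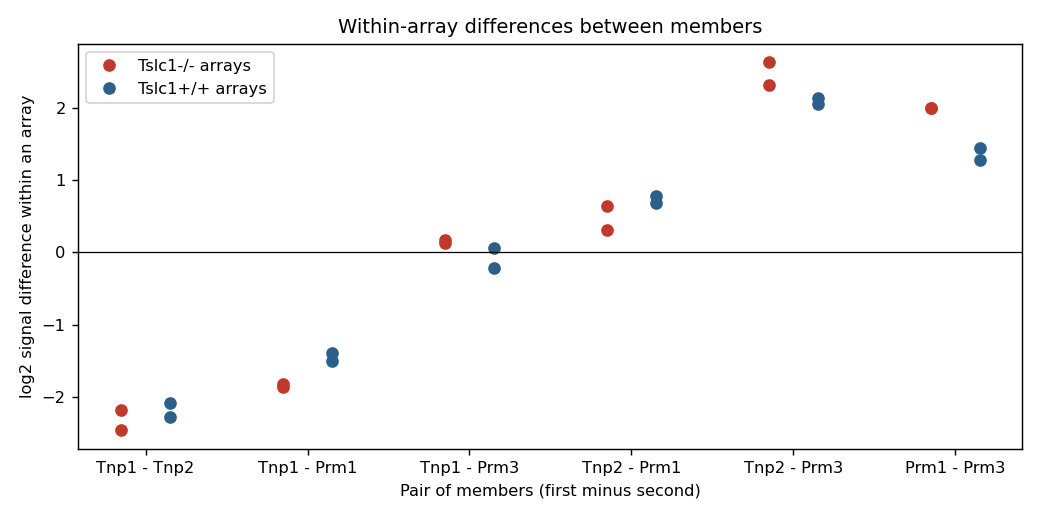
Log2 signal of the first gene minus that of the second within each array, for the 6 pairs of bright members (brightest probe set of each gene); red points are Tslc1-/- arrays and blue points Tslc1+/+ arrays. The Prm1 minus Prm3 points lie at 1.99 and 2.00 in Tslc1-/- (drawn on top of each other) and at 1.28 and 1.45 in Tslc1+/+, while those of Tnp1 minus Tnp2 overlap.

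Along chromosome 16 the lower ends of Tnp2, Prm3 and Prm2 lie at -8.4, -5.82 and -4.96 kb relative to that of Prm1. The gene with the largest change, Prm3, thus sits between Tnp2 and Prm2, and Prm1 at the end of the cluster had the smallest change of the bright genes. Socs1, the inhibitor of cytokine signalling at -12.52 kb on the Tnp2 side, read 751.8 and 294.6 in Tslc1-/-, against 792.2 and 492.0 in Tslc1+/+ (log2 change -0.36, limma, adjusted p = 0.82). Of 6 tested genes listed as lying beside the members, 1 rose, none fell and 5 did not pass, with a median change of 0.33 against 0.02 over all tested probe sets. The one that rose was Rpl37a, a ribosomal protein gene at -303.81 kb from Tnp1, at 12488 ± 147 in Tslc1-/- and 8767 ± 71.8 in Tslc1+/+ (SD, n = 2 arrays each; log2 change 0.51, limma, adjusted p = 0.0276). Leaving out any 1 array ended this call (adjusted p from 0.157 to 0.167).

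**Figure D3:**
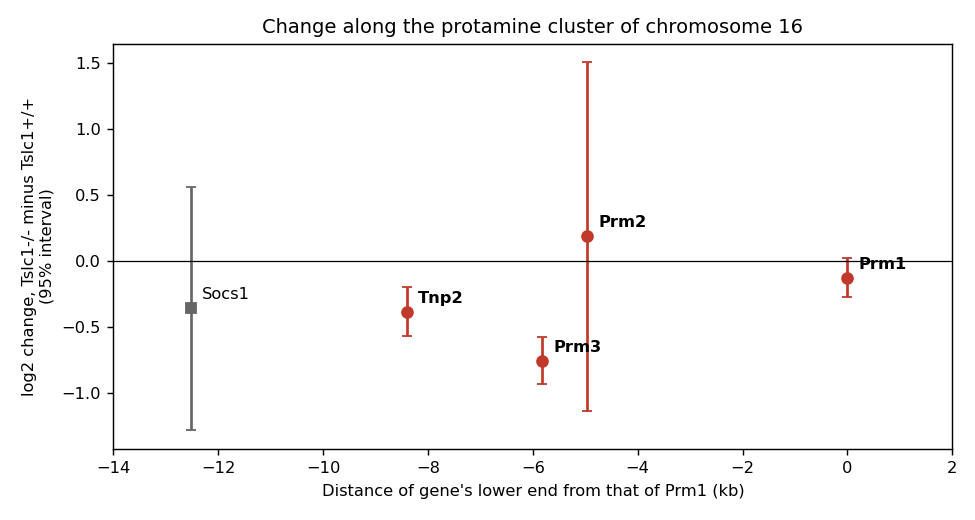
Log2 change (Tslc1-/- minus Tslc1+/+) with its 95% interval for genes of the protamine cluster of chromosome 16, against the distance of each gene's lower end from that of Prm1 in kb; members are red circles and Socs1 a grey square. Prm3 is lowest at -0.76, Tnp2 is at -0.39 and Prm1 at -0.13, and the Prm2 interval spans -1.14 to 1.5.

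Many but not all of the other transcripts listed for the same cells had lower signals. Of 12 tested other elongating spermatid genes, 5 fell, none rose and 7 did not pass, where 0.84% of all tested probe sets were called lower. Their median change was -0.42, against 0.02 over all tested probe sets. With quantile normalization the median change of the 12 was -0.20. All 12 were brighter than the median tested probe set (signal 777.3), and calls are easier on bright probe sets, so these comparisons are not made at like signal. Oaz3, the antizyme of haploid germ cells, had the smallest p, at 17229 and 18241 in Tslc1-/-, against 43918 and 46007 in Tslc1+/+ (log2 change -1.34, limma, adjusted p = 2.31e-05). Gapdhs, the sperm glyceraldehyde-3-phosphate dehydrogenase and the brightest of that list, changed by -0.51 (log2; limma, adjusted p = 0.00495), but did not pass with quantile normalization (-0.19, adjusted p = 0.116) or when all probe sets were tested (adjusted p = 0.159). A second Gapdhs probe set, with no suffix, read 22243 and 20759 in Tslc1-/-, against 40012 and 34913 in Tslc1+/+ (log2 change -0.80, limma, adjusted p = 0.00143). The others that fell were Odf1 and Akap4 of the sperm tail, with log2 changes of -0.85 and -0.90, and the germ cell chaperone Hspa1l, with -0.58. Of the 12 changes 9 were negative, while Haspin, Actl7b and Tekt2 had positive ones of 0.13, 0.05 and 0.02.

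Of 13 tested round spermatid genes, 6 fell, none rose and 7 did not pass, where 0.84% of all tested probe sets were called lower. Their median change was -0.27, and most of them too were brighter than the median tested probe set. The median was -0.41 with a signal limit of 500 or without suffixed probe sets, and -0.53 without Tslc1+/+ replicate 2. Gsg1, the germ cell membrane protein gene with the smallest p of the list, read 45007 and 44413 in Tslc1-/-, against 71653 and 77606 in Tslc1+/+ (log2 change -0.74, limma, adjusted p = 5.16e-04). Tcp11, the brightest of the list and linked to sperm motility, fell as well, with a log2 change of -0.55 ± 0.07 (SE; limma, adjusted p = 0.00231). Of the 13 changes 11 were negative, while Acr and Tcp10b had positive ones of 0.15 and 0.03. Both spermatid lists were chosen with results of these arrays known, so their direction is no independent evidence.

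Placed among these genes, the members were spread over the range. Of the 12 elongating spermatid genes, 3 had a more negative change than Prm3, 4 than Tnp1, 6 than Tnp2 and 8 than Prm1. Measured from the median log2 signal of those 12 genes on the same array, Prm3 was at -0.16 and -0.10 in Tslc1-/-, against 0.29 and 0.02 in Tslc1+/+, a difference of -0.28. Prm1 was at 1.83 and 1.90 in Tslc1-/-, against 1.57 and 1.47 in Tslc1+/+, a difference of 0.35. Tnp1 and Tnp2 differed from the list median's shift by -0.05 and 0.09. These values depended on the list: measured from the median of the 13 round spermatid genes, the difference was -0.54 for Prm3 and only 0.09 for Prm1. On that scale the differences for Tnp1 and Tnp2 were -0.31 and -0.17. These within-array differences were not tested, as 2 arrays against 2 allow no p under 0.33.

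**Figure D4:**
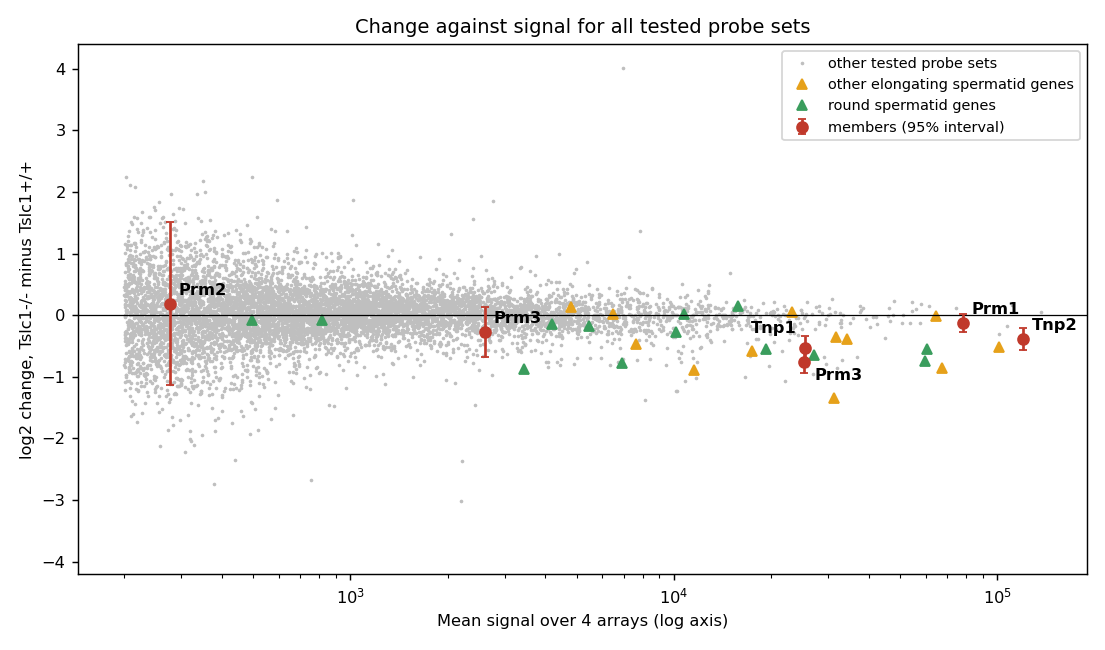
Log2 change (Tslc1-/- minus Tslc1+/+) of all 7975 tested probe sets against mean signal over the 4 arrays on a log axis; members are red circles with 95% intervals, other elongating spermatid genes yellow triangles and round spermatid genes green triangles. Prm3 at -0.76 and Tnp1 at -0.53 lie among the lower spermatid genes, Prm1 at -0.13 lies close to 0, and the intervals widen at low signal.

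Signal strength matters for these comparisons, because calls are easier on bright probe sets. Among the 113 other tested probe sets with a mean signal within 1.5-fold of that of Prm3, 17 were called lower and 0 higher, their median change was -0.08, and 7 had a more negative change than Prm3. Around Tnp1 there were 110 such probe sets, of which 16 were called lower, 0 higher and 16 had a more negative change. Around Prm1 there were 16, of which 8 had a more negative change, so Prm1 stood in the middle of its brightness class. This comparison was chosen after the values were seen.

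Calls were few in the machinery around the exchange. Among 8 tested histone variants and linker histones, 1 fell and 7 did not pass (median change -0.11). It was H2ax, the histone that is phosphorylated at DNA breaks and on the sex chromosomes in meiosis, at 2867 and 3570 in Tslc1-/-, against 5729 and 5597 in Tslc1+/+ (log2 change -0.81, limma, adjusted p = 0.0176). H2ax was also the only gene of 13 that fell in the DNA strand break and repair list, where none rose (median 0.09). It passed with only Tslc1-/- replicate 2 as the array left out (adjusted p from 0.125 to 0.146 without each of the other three).

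None of 17 tested histone removal and chromatin remodelling factors passed (median 0.15), Kat2a, a histone acetyltransferase, having the smallest p with a log2 change of 1.38 (limma, adjusted p = 0.19). Of 17 kinases, phosphatases, chaperones and import factors of basic nuclear proteins, 1 fell and none rose (median -0.08). It was Srpk2, a kinase of serine and arginine-rich proteins, at 5467 and 5082 in Tslc1-/-, against 8263 and 8974 in Tslc1+/+ (log2 change -0.70, limma, adjusted p = 0.0115). Its relative Srpk1, which phosphorylates protamine, had a change of 0.30 (adjusted p = 0.438). The Srpk2 call ended whichever array was left out (adjusted p from 0.0687 to 0.126).

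None of 13 tested transcription regulators of these genes passed (median -0.03). Hmgb2, a DNA-bending protein, had the smallest p, with a change of -0.84 (limma, adjusted p = 0.26). Crem, the spermatid activator that binds cyclic AMP response elements, was dim, at 483.4 and 479 in Tslc1-/-, against 554.9 and 469.3 in Tslc1+/+, and overlapped between genotypes (log2 change -0.08, 95% interval -0.76 to 0.60). Tbpl1, the TBP-like factor needed for spermatid maturation, had a change of -0.03 with an interval of -0.34 to 0.28. Crem, Tbpl1, Srpk1 and the next named binders Ybx2, Ddx25 and Tarbp2 were picked for their known roles after their values were seen.

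Of 28 tested binders and translation regulators of stored spermatid messenger RNA, 1 rose, none fell and 27 did not pass (median 0.06). Ybx3, a Y-box protein that binds germ cell messenger RNA, rose to 16037 and 20871 in Tslc1-/-, against 11094 and 11769 in Tslc1+/+ (log2 change 0.68, limma, adjusted p = 0.0263). It passed with only Tslc1-/- replicate 1 as the array left out (adjusted p from 0.126 to 0.19 without each of the other three) and not when all probe sets were tested (adjusted p = 0.099). Ybx2, the Y-box protein that stores protamine messenger RNA, had a change of -0.13 (95% interval -0.31 to 0.05), the helicase Ddx25 one of 0.04 (-0.16 to 0.24) and Tarbp2, a double-stranded RNA binder needed for protamine translation, one of 0.36 (0.13 to 0.59, limma, adjusted p = 0.189).

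Of 15 manchette and nuclear shaping genes, 1 fell, none rose and 14 did not pass (median 0.02). Rangap1, the activator of the Ran GTPase, read 4595 and 5343 in Tslc1-/-, against 9129 and 7842 in Tslc1+/+ (log2 change -0.77, limma, adjusted p = 0.0147). A second Rangap1 probe set had a change of 0.11, and the call of the first ended whichever array was left out (adjusted p from 0.0529 to 0.161).

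Markers of other cells of the testis were set beside these results. The summed signal of 11 Sertoli cell markers was 35604 and 34672 in Tslc1-/-, against 36697 and 34564 in Tslc1+/+, with none called. For 7 spermatocyte markers it was 95313 and 87365 in Tslc1-/-, against 92003 and 95910 in Tslc1+/+, with 1 called lower (Pgk2, the germ cell phosphoglycerate kinase, at -0.78, which the round spermatid list also holds). Most of that sum was Ldhc, the germ cell lactate dehydrogenase, at 69299 and 59746 in Tslc1-/-, against 63516 and 66567 in Tslc1+/+, and Ldhc is also 1 of the 12 elongating spermatid genes. For 8 Leydig cell markers it was 13256 and 14891 in Tslc1-/-, against 15525 and 15654 in Tslc1+/+, with none called. The 7 peritubular myoid markers summed to 15215 and 14395 in Tslc1-/-, against 17903 and 19953 in Tslc1+/+, with 1 called lower, Actg2 at -0.57, whose probe set marks a family of similar sequences. No tested spermatogonial, macrophage, erythrocyte or epididymis marker was called. The sums of the Leydig and myoid markers were thus also lower on both Tslc1-/- arrays, each largely through 1 gene. For the myoid markers it was Actg2, at 8412 and 8104 in Tslc1-/-, against 11738 and 12936 in Tslc1+/+. For the Leydig markers it was Cyp17a1, at 2917 and 3733 in Tslc1-/-, against 4673 and 5229 in Tslc1+/+. Only 4 of 8 Leydig and 5 of 7 myoid changes were negative. The erythrocyte sum was higher on both Tslc1-/- arrays, at 2720.9 and 2450, against 1898.8 and 2372.5 in Tslc1+/+. This was largely through Hba-a1, at 1863 and 1616 in Tslc1-/-, against 897 and 1136 in Tslc1+/+. Alas2 went the other way, at 627 and 737 in Tslc1-/-, against 966 and 1037 in Tslc1+/+. Hbb-b2 was too dim to be tested and overlapped between genotypes. The 12 elongating spermatid genes summed to 345024 and 323907 in Tslc1-/-, against 461886 and 475324 in Tslc1+/+. The part of cell composition in the lower Prm3 and Tnp1 signals was not tested.

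Genes of like pattern were sought among named probe sets with a mean signal of at least 5000, as the 3 with the smallest root mean square difference of centred log2 signals over the 4 arrays. Because the match used these same signals, like changes and calls follow from the choice and are no further evidence. For Prm3 they were Chl1, Akap12 and Cox6c (differences of 0.05, 0.05 and 0.05), with log2 changes of -0.81, -0.70 and -0.73, each of them called lower. For Tnp1 they were Actg2, Hspa1l and Stat4 (0.04, 0.04 and 0.04), with changes of -0.57, -0.58 and -0.45, of which Stat4 was not called. For Tnp2 they were Gpd2, Ift172 and Vars (0.03, 0.04 and 0.05), none of which was called. Prm1 was most like Cct4, Penk and Phpt1 (0.02 each), with changes of -0.14, -0.13 and -0.08 and none called. The dim Prm2 probe set had no close match, the nearest being Alas1, Polr2a and Sct at 0.28, 0.32 and 0.32.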

How the data were processed

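The 4 Affymetrix mouse arrays were hybridised with labelled cRNA made from testis RNA by oligo(dT) priming, per the labels' series design. Each deposited value is a linear intensity, from 1.5 to 146239. The authors computed signals with Microarray Suite 5.0, per the labels' series design (MAS5, per the submitters' processing notes), with global scaling to a target of 1000. The mean after trimming 2% at each end was checked and was 1001 on every array. Such scaling hides any change in total RNA. No detection calls were used here, and no saturation limit is known for the brightest probe sets.

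Names came from GEO's annotation of the platform. Of 12488 probe sets, 66 controls were left out, and 10833 of the rest had 1 gene, 396 several and 1193 none. Genes stood by their brightest probe set in the lists. Listed genes were matched by symbol, or through RefSeq symbols and unique synonyms. Log2(signal + 50) was fitted with limma 3.58.1 in R 4.3.3 (eBayes with an intensity trend, two-sided, all 4 arrays, no covariate). The fit was also run on simulated data whose spread was drawn from its own intensity trend, so that run cannot check the trend. The lists were described by counts and medians, with no set test. With 2 arrays per genotype, their number limits the precision.

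Every member probe set is named. From each list the called gene with the smallest p in each direction is named, or the smallest p where none was called, plus the brightest of both spermatid lists. Any other gene was named with its values in view. The members, lists and tests were chosen with earlier results of these data known. Same-numbered arrays of the genotypes did not deviate together (r = -0.0012 over tested probe sets), and the labels state no pairing. Alternatives changed the offset, the signal limit, the normalization, the trend, the suffixed probe sets, the arrays and the replicate block.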

Additional observations from a re-analysis of the deposited data

How the results depend on the processing

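Prm3 (93242_at) and Tnp1 kept their direction under every alternative run. Without the intensity trend neither passed (limma, log2 change -0.76, adjusted p = 0.469, and -0.53, adjusted p = 0.589), and 0 probe sets were called in either direction over all genes and 0 in the gene lists. Testing all probe sets left Tnp1 at -0.53 (adjusted p = 0.091), 10 probe sets called higher instead of 19, and 0 list genes called higher instead of 2. Among named genes Gapdhs (adjusted p = 0.159), Tcp11 (0.066), Ybx3 (0.099), Rpl37a (0.066) and Actg2 (0.0525) also lost their calls there. Tnp2 newly passed with equal array medians (-0.41), with quantile normalization (-0.31), without suffixed probe sets (-0.39) and with the replicate block (-0.39, limma, adjusted p = 5.24e-04). Under quantile normalization its rank was the same on both arrays of each genotype, which removes the spread behind that pass. The replicate block, which rests on numbers that mark no stated pairing, called 154 probe sets lower and 85 higher and changed no other member's call.

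With 1 array left out, the log2 change ranged from -0.81 to -0.71 for Prm3, from -0.62 to -0.44 for Tnp1, from -0.52 to -0.26 for Tnp2, from -0.16 to -0.09 for Prm1, from -0.50 to -0.05 for the dim Prm3 probe set, and from -0.33 to 0.70 for Prm2, which reversed. The lone array of a genotype is then assumed to vary like the other genotype. Calls over all genes ranged from 28 to 39 lower and 4 to 14 higher, and those in the lists, of 138 genes, from 5 to 9 lower (14 with all arrays) and 0 to 1 higher. The round spermatid median ranged from -0.53 to -0.25 and the elongating one from -0.48 to -0.42. Quantile normalization put these medians at -0.20 and -0.20. Alas1 reversed between -0.13 and 0.31 and Polr2a between -0.26 and 0.17. Oaz3, Gsg1 and Chl1 passed with each array left out, whereas Hspa1l and Actg2 failed in all 4 such fits, Akap12 and Cox6c failed in 3 of 4 such fits, Tcp11 failed without Tslc1+/+ replicate 2 (adjusted p = 0.0529), and Gapdhs failed without either Tslc1+/+ array. No difference between members reversed with an offset of 1 or with quantile normalization. Quantile normalization gave Prm1 a change of 0, its rank being the same on each array. Dim signals limit Prm2, and the cause of each other shift was not tested.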
